A study of Rattus norvegicus with 20 samples.

Results

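The insulin-like growth factor (IGF) system was described by 16 array probes of 10 genes in neurons of aged rats after stroke: the ligands Igf1 and Igf2, the receptors Igf1r and Igf2r, the binding proteins Igfbp2, Igfbp3, Igfbp4, Igfbp5 and Igfbp6, and the adaptor Irs1. A probe was a member if the gene name on the array, or its accession where the name was older, was one of these genes; 4 probes named Igf1, 2 each Igfbp3, Igfbp4 and Igfbp5, and 1 each of the other 6 genes. They were 10 of 15351 named genes and 16 of 41012 probes, and 15 of them were among the 34226 probes bright enough to be tested; the other was an Igfbp5 probe. All animals were rats aged 2 yr that had had a stroke, and 2 differently coloured cholera toxin B tracers were placed in turn at the same place in the cortex beside the infarct, where axons sprout, the second 21 days or 7 days after the first. About 300 sprouting neurons and about 300 non-sprouting neurons were cut out by laser from each animal 7 days after the second tracer, and their RNA was amplified by T7 polymerase. There were 5 animals at day 21 and 5 other animals at day 7, with no uninjured group and no young animals analysed here. The sprouting and the non-sprouting RNA of an animal were hybridised together on 2 arrays, a forward array with the sprouting RNA in the red dye (Cy5) and a dye-swap array with the dyes exchanged; the 2 arrays were averaged and counted as 1 replicate.

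IGF1 and IGF2 are small secreted proteins related to insulin. Both act through the tyrosine kinase receptor IGF1R, which signals through the adaptor IRS1 to the PI3 kinase and AKT pathway and to the MAP kinase pathway; IGF2R, the cation-independent mannose-6-phosphate receptor, carries IGF2 to lysosomes. The binding proteins hold the ligands outside cells and set how much reaches the receptor. In the brain IGF1 is a survival and growth factor for neurons and supports axon growth of corticospinal neurons, and after injury it is made by microglia and infiltrating macrophages as well as by neurons; IGF2 is made mainly by the meninges and the choroid plexus.

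The 2 ligands gave the widest ratios of the 10 genes, and the sequence before each start that RefSeq annotates for them (build GRCr8) is shown for that reason, 250 bases ending just before the start, with every CG pair in capitals. Igf1 (chr7:24172282-24172531, plus strand) has 3 CG pairs there, a number reached or passed by 71.4% of the 33469 such windows in the table, and Igf2 has 2 starts, the upstream one (chr1:207253981-207254230, minus strand) with 15 pairs, reached by 25.8%, and the downstream one (chr1:207250476-207250725, minus strand) with 7 pairs, reached by 45.2%. The counts describe the sequence; the arrays do not show which start was used.
Igf1: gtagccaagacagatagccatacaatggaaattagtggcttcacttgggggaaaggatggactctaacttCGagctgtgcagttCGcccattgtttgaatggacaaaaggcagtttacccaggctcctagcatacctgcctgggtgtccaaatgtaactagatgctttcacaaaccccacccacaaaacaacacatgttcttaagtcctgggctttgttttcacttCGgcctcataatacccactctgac
Igf2, upstream start: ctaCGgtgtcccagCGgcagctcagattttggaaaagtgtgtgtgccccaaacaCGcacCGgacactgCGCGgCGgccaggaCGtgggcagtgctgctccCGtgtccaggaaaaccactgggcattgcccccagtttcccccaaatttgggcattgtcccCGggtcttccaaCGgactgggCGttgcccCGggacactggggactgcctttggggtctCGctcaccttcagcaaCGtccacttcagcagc
Igf2, downstream start: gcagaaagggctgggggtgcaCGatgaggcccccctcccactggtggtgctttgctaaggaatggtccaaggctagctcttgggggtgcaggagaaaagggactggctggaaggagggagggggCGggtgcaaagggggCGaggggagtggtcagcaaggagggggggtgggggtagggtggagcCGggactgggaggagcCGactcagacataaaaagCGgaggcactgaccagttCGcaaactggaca

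The share of spots detected clearly over background lay between 69.8% and 95.5% for the red dye of an array and between 20.8% and 95.2% for the green dye, and the number of arrays limits the precision. The lowest green share belonged to the dye-swap array of animal 4 of day 21, whose 2 arrays also matched least (correlation of the log2 ratios across probes 0.0464, against 0.321 to 0.890 in the other 9 animals). Neuron markers were present in the sprouting pools: 7 of 11 on the list were well above background on all 20 arrays, among them Rbfox3 and Snap25. So were 6 of 8 markers of interneurons, 5 of 8 of oligodendrocytes, 8 of 20 of microglia and macrophages and 3 of 9 of astrocytes. The counts were 2 of 5 for meninges and fibroblasts, 1 of 6 for blood cells and 0 of 9 for endothelium and pericytes. Animal 1 of day 7 stood apart. In it 7 of the 20 microglia and macrophage markers were at least 1 log2 unit higher in the sprouting pool, among them Lyz2 (4.21), Lgals3 (3.90), Gpnmb (3.81) and Cd14 (2.98). So were 4 of 5 markers of meninges and fibroblasts and 3 of 6 markers of blood cells (Hbb 2.28, S100a9 1.67 and Hbb-b1 1.57). The same held for 1 of 8 interneuron markers and 1 of 9 of endothelium and pericytes. It held for 0 of 11 neuron, 0 of 9 astrocyte and 0 of 8 oligodendrocyte markers. The lowest microglia and macrophage marker in this animal was Cd74 (-0.93). No share of all tested probes at that size is given here. With whole pools of captured cells, more cells of a type and more RNA per cell cannot be told apart.

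The question of each array was which transcripts differ between a neuron that sprouted and one that did not. A log2 ratio below is sprouting over non-sprouting, so that 1 is a 2-fold higher signal in the sprouting pool. At day 7 the brightest Igf1 probe gave a signal in the sprouting pool above that of the non-sprouting pool in all 5 animals, and at day 21 it did not; Igf2 was higher in the sprouting pool of some animals and lower in that of others on both days; the receptors, the binding proteins and Irs1 mostly lay close to equal. Across the 15 tested member probes, 0 passed limma's moderated test at an adjusted p of 0.05 (Benjamini-Hochberg over all 34226 probes) at either day, between the days or in the mean of the days, and 0% of all tested probes did. At an unadjusted p of 0.05, 2 of 15 member probes passed at day 7, both Igf1, against 6.11% of all probes; 1 passed at day 21, Irs1, against 4.75%; 2 passed for day 21 minus day 7, Igf1 and Irs1, against 4.13%; and 2 passed in the mean of the days, both Igf1, against 6.45%. The median log2 ratio over the member probes was -0.0047 at day 21 and 0.061 at day 7, beside -0.00023 and -0.0021 over all tested probes. By direction, 0 of 15 member probes were above 0 in all 5 animals of day 21, against 2.87% of all tested probes, and 2 of 15 (the bright Igfbp4 probe and Irs1) were below 0 in all 5, against 3.39%. At day 7, 3 of 15 were above 0 in all 5 animals, all of them Igf1, against 5.15%, and 0 of 15 were below 0, against 5.98%. Of these Igf1 probes, A_44_P421499 lay only between 0.0042 and 0.085. Its day 7 mean was -0.067 on the forward and 0.14 on the dye-swap arrays. Without animal 1 of day 7 the median of the members at day 7 was 0.024, and 2 of 15 passed at the unadjusted threshold, against 4.55% of all probes.

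**Figure D1:**
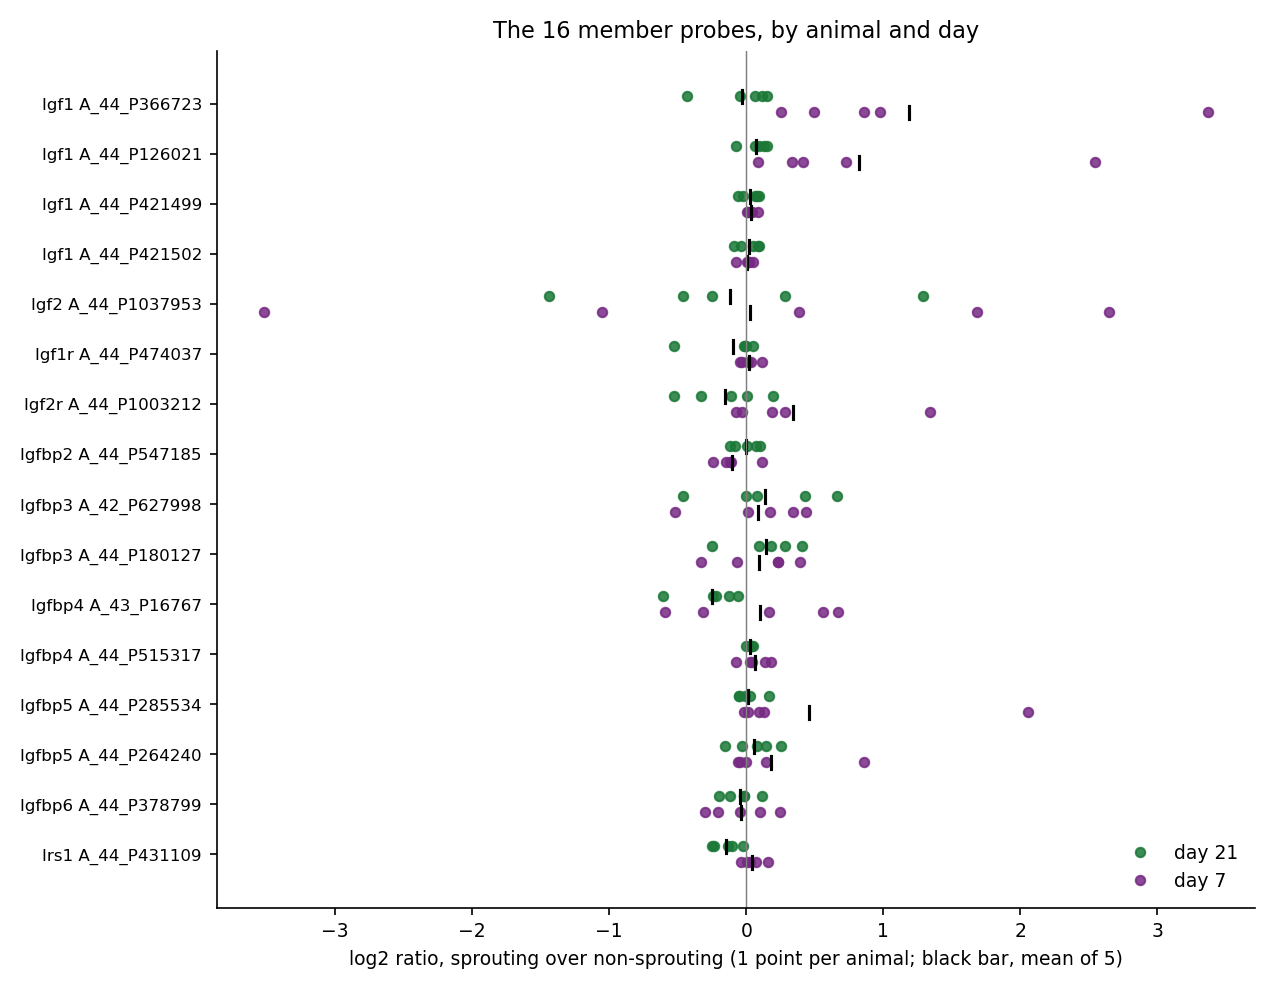
Log2 ratio, sprouting over non-sprouting, of each of the 16 member probes (rows) in each of 5 animals at day 21 (green, upper row of points) and 5 at day 7 (purple, lower row); black bars are means. At day 7 the points of the first 2 Igf1 probes all lie right of 0, those of Igf2 span -3.52 to 2.65, and most other probes lie near 0 apart from a single high animal for Igf2r and Igfbp5.

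The brightest Igf1 probe, A_44_P366723, was designed on the reference Igf1 mRNA. Its log2 ratio in the 5 animals of day 21 was -0.047, 0.11, -0.43, 0.15 and 0.065, and in the 5 animals of day 7 it was 3.37, 0.97, 0.86, 0.49 and 0.25. The days did not overlap, and every day 21 animal lay below every day 7 animal, which 0.611% of all tested probes also did. The mean was -0.031 ± 0.24 at day 21 and 1.19 ± 1.25 at day 7 (SD, n = 5 each), the day 7 mean being a 2.28-fold higher signal in the sprouting pool. The difference, day 21 minus day 7, was -1.22 (SE 0.50); an exact permutation of the day over the 10 animals gave p = 0.00794, the smallest it can give, and limma's adjusted p was 0.921. At day 7 alone the exact sign-flip test over 5 animals gave p = 0.063, again the smallest it can give, and limma's adjusted p was 0.704.

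Animal 1 of day 7 carried much of that mean. It showed a 10.3-fold higher Igf1 signal in its sprouting pool, and the other 4 animals showed 1.96-fold, 1.82-fold, 1.41-fold and 1.19-fold. Without it the day 7 mean was 0.64 ± 0.33 (SD, n = 4), a 1.56-fold higher signal, and the difference between the days was -0.67, with an exact permutation p of 0.00794. The forward and the dye-swap array gave alike values: at day 7 the forward arrays read 3.48, 1.05, 1.01, 0.54 and 0.25 and the dye-swap arrays 3.25, 0.90, 0.71, 0.44 and 0.25. All 10 arrays of day 7 were above 0, and 6 of 10 arrays of day 21 were.

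The second Igf1 probe, A_44_P126021, was designed on a sequence that the array describes as the 5′ end of a class C Igf1 mRNA. Its log2 ratio was 0.061, 0.15, -0.073, 0.091 and 0.13 at day 21 and 2.55, 0.41, 0.73, 0.33 and 0.088 at day 7. All 5 animals of day 7 were above 0, but the lowest of them lay inside the day 21 range. The mean was 0.073 ± 0.089 at day 21 and 0.82 ± 0.99 at day 7 (SD, n = 5 each), and the difference of -0.75 (SE 0.39) had an exact permutation p of 0.032 and a limma adjusted p of 0.921. Over both days 9 of 10 animals were above 0 (mean 0.45), with an exact sign-flip p of 0.0059 and a limma adjusted p of 0.765. At day 7 the forward arrays read 2.63, 0.44, 0.77, 0.35 and 0.12 and the dye-swap arrays 2.46, 0.38, 0.69, 0.31 and 0.056; at day 21 the forward arrays averaged 0.024 and the dye-swap arrays 0.12. Over the 10 animals it followed the brightest probe (Pearson r = 0.98, and 0.89 without animal 1 of day 7).

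The remaining Igf1 probes, A_44_P421499 and A_44_P421502, carry the same reference accession as the brightest probe and were flat in their ratios. The first read 0.067, -0.061, 0.091, 0.077 and -0.023 at day 21 and 0.085, 0.0042, 0.031, 0.010 and 0.042 at day 7. The second read 0.089, -0.089, -0.039, 0.091 and 0.048 at day 21 and -0.078, 0.047, 0.020, 0.0023 and 0.020 at day 7. In animal 1 of day 7, where the brightest probe read 3.37, these probes read 0.085 and -0.078. The probes of this 1 gene therefore disagreed on a signal of that size. Which part of the transcript each probe covers was not tested, since no probe sequence was used here. The first was also open to the dye: its mean over the 10 animals was -0.13 on the forward arrays and 0.19 on the dye-swap arrays, with opposite signs. All 4 Igf1 probes were well above background on 7 to 10 of the 10 arrays of each pool and day. The flat pair was dimmer, with mean log2 intensities of 7.14 and 6.96, against 9.47 for the brightest probe and 7.83 for the class C probe. Whether low signal flattened the ratios of the pair was not tested.

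A further probe, A_44_P1044658, is not among the 16: its gene name on the array is the accession S43941, and the array's description calls it an exon of the rat IGF-I gene. Its log2 ratio was 0.056, -0.042, 0.17, -0.61 and 0.37 at day 21 and 3.0, 1.46, 0.12, 0.52 and 0.35 at day 7. It was above 0 on all 10 arrays of day 7 and on 5 of 10 arrays of day 21. The mean was -0.010 ± 0.37 at day 21 and 1.09 ± 1.18 at day 7 (SD, n = 5 each), and the difference of -1.10 had an exact permutation p of 0.040, which was 0.063 without animal 1 of day 7; limma's adjusted p was 0.921. The exact call was also lost when any 1 animal of day 21 was left out (exact p up to 0.15), with median centring (-1.05, exact p = 0.087) and on forward arrays alone (-1.02, exact p = 0.063).

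**Figure D2:**
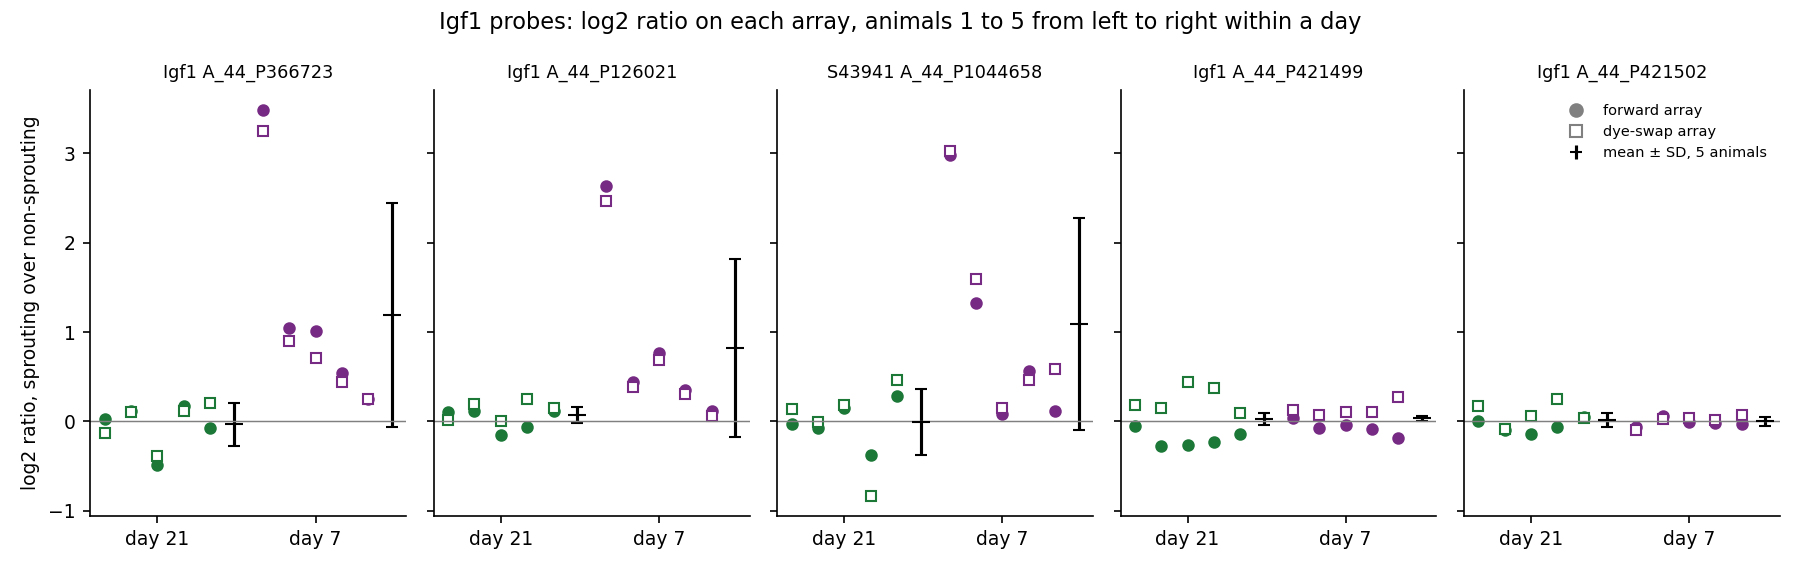
Log2 ratio, sprouting over non-sprouting, on each array for the 4 Igf1 probes and the S43941 probe; green is day 21 and purple day 7, filled circles are forward arrays, open squares dye-swap arrays, and bars are the mean ± SD of 5 animals. In the first 3 panels all day 7 arrays lie above 0 and animal 1 is highest on both of its arrays, while in the last 2 panels the values stay within 0.45 of 0.

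For the brightest and the class C probe of Igf1, the levels of each pool show on which side the difference lay. A level is the log2 intensity of that pool's channel after normalization between arrays. For the brightest probe the sprouting pools read 8.84, 9.48, 8.64, 8.52 and 8.36 at day 21 and 12.77, 10.93, 10.21, 9.60 and 9.35 at day 7. The non-sprouting pools read 8.89, 9.37, 9.07, 8.37 and 8.30 at day 21 and 9.40, 9.95, 9.35, 9.11 and 9.1 at day 7. The order of the group means was sprouting day 7 (10.57 ± 1.37), non-sprouting day 7 (9.38 ± 0.35), non-sprouting day 21 (8.80 ± 0.46) and sprouting day 21 (8.77 ± 0.43), and the pools of day 21 differed by less than their spread (SD, n = 5 each). Day 21 minus day 7 was -1.80 (SE 0.56) in the sprouting pools, exact permutation p = 0.016, and -0.58 (SE 0.24) in the non-sprouting pools, exact permutation p = 0.048; limma's adjusted p was 0.224 and 0.281. Without animal 1 of day 7 these values were -1.25 (exact permutation p = 0.024) and -0.58 (p = 0.11), and the call in the non-sprouting pools was lost on leaving out 9 of the 10 animals in turn.

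The class C probe showed the same side. Its sprouting pools read 7.65, 7.89, 7.54, 7.33 and 7.03 at day 21 and 10.16, 8.25, 8.46, 8.01 and 7.95 at day 7, with every day 21 pool below every day 7 pool, as in 3.35% of all tested probes. Its non-sprouting pools read 7.59, 7.74, 7.62, 7.24 and 6.90 at day 21 and 7.61, 7.84, 7.73, 7.68 and 7.86 at day 7. Day 21 minus day 7 was -1.07 (exact permutation p = 0.00794) in the sprouting pools and -0.33 (p = 0.063) in the non-sprouting pools, and limma's adjusted p was 0.256 and 0.353. The flat probe A_44_P421499 was lower at day 21 alike in both pools. Its difference was -0.32 in the sprouting (exact permutation p = 0.056) and -0.32 in the non-sprouting pools (p = 0.024, up to 0.12 when 1 animal was left out). Limma's adjusted p was 0.346 and 0.325. For A_44_P421502 the differences were -0.045 (exact permutation p = 0.52) and -0.062 (p = 0.41).

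Differences between the days touch the scan batches, in the levels and in the ratios. The arrays were scanned in 5 batches, and 1 batch held both days: animal 1 of day 21 with animals 4 and 5 of day 7. Within it, day 21 minus day 7 for the brightest Igf1 probe was -0.42 in the ratio, -0.63 in the sprouting level and -0.22 in the non-sprouting level (1 animal against 2), and for the class C probe it was -0.15, -0.33 and -0.18. These have the sign of the values over all animals and are smaller. Animal 1 of day 7 was in a batch of its own, so that its batch and its values cannot be told apart. At day 7 the ratio of the brightest Igf1 probe fell in the order of the batches. It was 3.37 in the first, 0.97 and 0.86 in the next, and 0.49 and 0.25 in the batch that held both days. Over all tested probes the median of day 21 minus day 7 was -0.061 in the sprouting and -0.059 in the non-sprouting level.

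**Figure D3:**
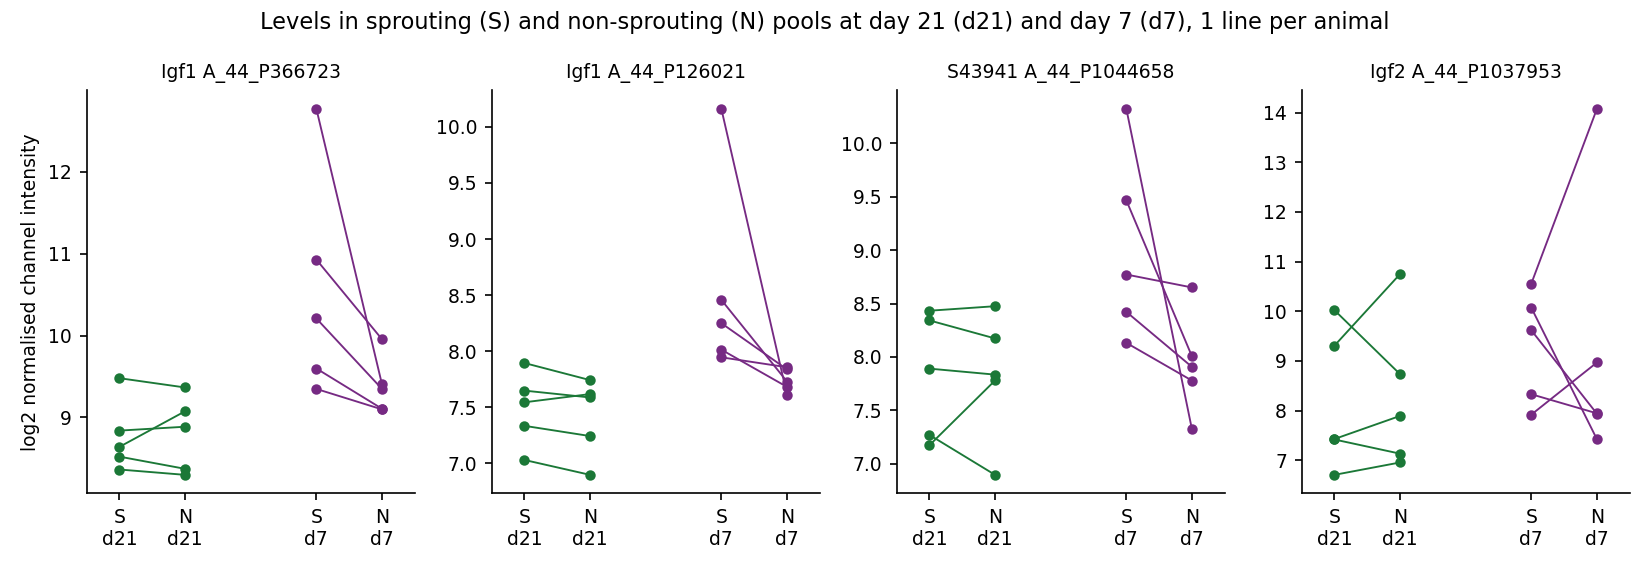
Log2 normalised channel intensity in the sprouting (S) and the non-sprouting (N) pool of each animal, joined by a line, at day 21 (d21, green) and day 7 (d7, purple), for 2 Igf1 probes, the S43941 probe and Igf2; each panel has its own scale. At day 7 all Igf1 lines fall to the right, the steepest to 9.40 in the non-sprouting pool against 12.77 in the sprouting pool, while the Igf2 lines run both ways.

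Igf2, the ligand with 1 probe, had the widest spread of ratios over the animals of each day among the members, with no common direction. Its log2 ratio was 1.29, -1.44, -0.47, -0.25 and 0.29 at day 21 and 2.65, -3.52, -1.05, 0.38 and 1.68 at day 7. At day 7 the signal was 6.27-fold higher in the sprouting pool of animal 1 and 11.5-fold higher in the non-sprouting pool of animal 2. Both arrays of each animal had the same sign, for example -3.33 on the forward and -3.71 on the dye-swap array of animal 2 of day 7. The mean was -0.12 ± 1.0 at day 21 and 0.029 ± 2.42 at day 7 (SD, n = 5 each), and the difference of -0.15 (SE 1.03) was far within the spread (exact permutation p = 0.90; limma adjusted p = 0.981).

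The Igf2 level in the sprouting pools was 10.02, 9.31, 7.43, 6.70 and 7.42 at day 21 and 10.07, 10.56, 7.92, 8.33 and 9.62 at day 7. In the non-sprouting pools it was 8.73, 10.75, 7.89, 6.95 and 7.13 at day 21 and 7.42, 14.08, 8.97, 7.94 and 7.94 at day 7. The non-sprouting pool of animal 2 of day 7 stood above all other pools. Markers of meninges and fibroblasts moved with Igf2 in some animals and not in others. In animal 1 of day 7, all 5 of them were above 0 (0.27 to 5.46, Col1a2 highest); in animal 2 of day 21, where Igf2 read -1.44, all 5 were below 0 (-2.69 to -0.56). In animal 2 of day 7, where Igf2 read -3.52, Ptgds, an enzyme of the leptomeninges, read -1.46, Dcn -0.45, Col3a1 -0.22 and Lum -0.048, and 1 of the 5, the collagen gene Col1a2, was above 0 (0.096); the list's median was -0.22. In animals 3 and 4 of day 21, where Igf2 read -0.47 and -0.25, 3 of 5 were above 0 in each. In animal 5 of day 21, where Igf2 read 0.29, 0 of 5 were. In animal 1 of day 21 Igf2 read 1.29 and 4 of 5 were above 0. In animals 3, 4 and 5 of day 7 Igf2 read -1.05, 0.38 and 1.68, and 1, 4 and 4 of 5 were. The summed level of these 5 genes lay between 3809 and 5527 in the sprouting and between 2816 and 10630 in the non-sprouting pools at day 21, and between 3309 and 33320 in the sprouting and between 3267 and 12537 in the non-sprouting pools at day 7. Without animal 1 of day 7 the highest sprouting sum of day 7 was 6332. Col1a2 and Ptgds were well above background on all 20 arrays of the sprouting pools, Col3a1 on 18, Dcn on 16 and Lum on 10. Their part in the Igf2 values was not tested.

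For Igf1, the list set beside it was that of microglia and macrophages. Its summed level was 121135 in the sprouting and 63810 in the non-sprouting pool of animal 1 of day 7; in the other day 7 animals it lay between 26402 and 31368 in the sprouting and between 23101 and 48270 in the non-sprouting pools, and at day 21 between 19293 and 25030 in the sprouting and between 19811 and 25463 in the non-sprouting pools. In animal 1, 12 of 20 markers were above 0 and the list's median was 0.21. Besides the high genes given above, Trem2 read 2.0, Tyrobp 1.30, Ptprc 0.43, Itgam 0.39 and Csf1r 0.11, while Cd74 read -0.93, Cx3cr1 -0.36, P2ry12 -0.046, C1qa -0.46 and C1qb -0.42. Other lists had higher medians in this animal: meninges and fibroblasts 3.28, blood cells 1.11, and endothelium and pericytes 0.29. The medians of oligodendrocytes (-0.052), astrocytes (-0.081), interneurons (-0.11) and neurons (-0.22) were below 0. In animal 2 of day 7, where Igf1 read 0.97, 5 of 20 markers were above 0, and the list's median was -0.24, with Lgals3 at -2.76 and Gpnmb at -0.91. In animals 3, 4 and 5 of day 7, where Igf1 read 0.86, 0.49 and 0.25, the list's median was 0.13, 0.19 and 0.11 and 17, 18 and 18 of 20 markers were above 0. Lgals3 read 1.42, 2.94 and 0.26 in these animals, and Gpnmb read 1.95, 1.09 and 0.51. At day 21 the medians lay between -0.075 and 0.0036. No share of all tested probes above 0 in single animals is given beside these counts. Whether these cells' RNA contributed to the Igf1 signal was not tested.

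**Figure D4:**
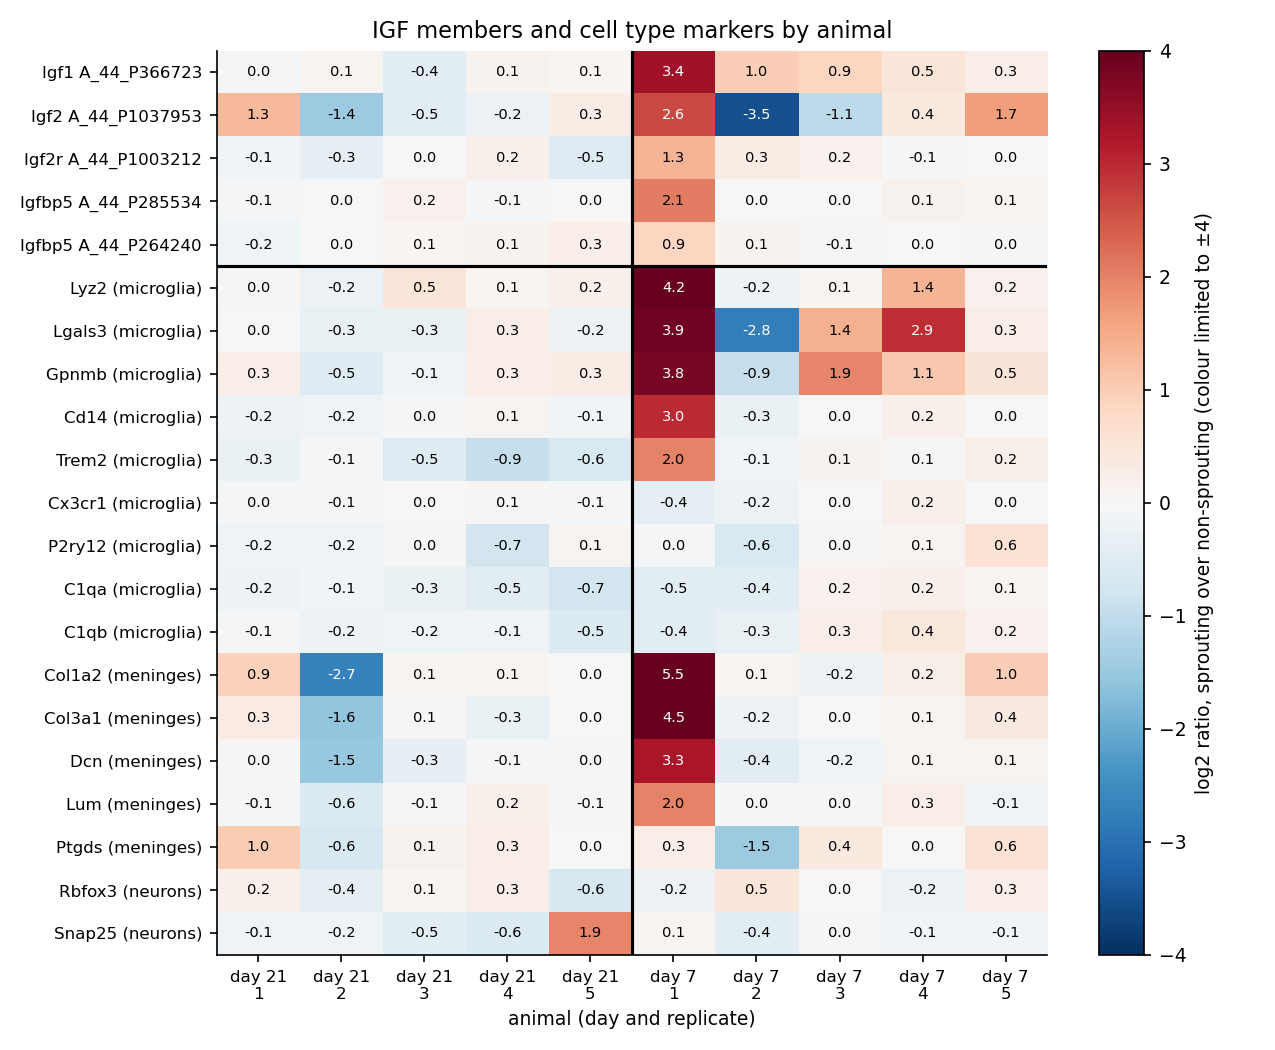
Log2 ratio, sprouting over non-sprouting, of 5 member probes (above the line) and 16 marker genes (below it; the word in brackets is the list they come from) in the 10 animals, day 21 on the left and day 7 on the right. Animal 1 of day 7 is the column with high Igf1, Igf2, Igf2r and Igfbp5 and high Lyz2, Lgals3, Col1a2 and Col3a1. In that column Cx3cr1 (-0.36), C1qa (-0.46), C1qb (-0.42) and P2ry12 (-0.046) are below 0. Animal 2 of day 7 has Igf1 at 0.97 with Lgals3 at -2.76.

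The receptors showed no common shift. Igf1r, the receptor that carries the IGF1 signal, read -0.0068, -0.016, 0.052, -0.53 and -0.0022 at day 21 and 0.12, -0.043, 0.034, 0.0095 and -0.033 at day 7. The only value away from 0, in animal 4 of day 21, came from the dye-swap array (-1.14), while the forward array read 0.083. At day 21 this probe was well above background on 5 of 10 arrays in the sprouting and on 7 of 10 in the non-sprouting pools, and on the authors' deposited table its day 21 mean was 0.019, against -0.10 here. Igf2r, the bright mannose-6-phosphate receptor probe, read -0.11, -0.33, 0.0046, 0.19 and -0.53 at day 21 and 1.34, 0.28, 0.18, -0.072 and -0.029 at day 7. Animal 1 of day 7 was again highest, on both arrays (1.38 and 1.31), and animal 5 of day 7 rests on its dye-swap array alone. The difference for Igf2r was -0.50 (SE 0.26; exact permutation p = 0.079; limma adjusted p = 0.921), and -0.25 without animal 1 of day 7.

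Among the binding proteins, Igfbp4, which is cleaved to release IGF, had a bright and a dim probe. The bright one, A_43_P16767, read -0.24, -0.22, -0.063, -0.13 and -0.61 at day 21 and 0.67, 0.56, -0.59, 0.17 and -0.32 at day 7. All 5 animals of day 21 were below 0 on both of their arrays, and so were 3.39% of all tested probes by animal; at day 7 the animals lay on both sides. The mean was -0.25 ± 0.21 at day 21 and 0.097 ± 0.55 at day 7 (SD, n = 5 each); at day 21 the exact sign-flip p was 0.063 and limma's adjusted p 0.917. The dim Igfbp4 probe, A_44_P515317, read between -0.0052 and 0.048 at day 21 and between -0.076 and 0.18 at day 7, with the value of animal 4 of day 21 from its forward array alone.

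Igfbp5, a binding protein also deposited in the matrix, differed in 1 animal. The probe A_44_P285534, which was too rarely above background to be tested, read -0.055, 0.027, 0.17, -0.056 and -0.0067 at day 21 and 2.06, -0.015, 0.016, 0.13 and 0.091 at day 7. The probe A_44_P264240 read -0.16, -0.028, 0.076, 0.14 and 0.26 at day 21 and 0.86, 0.15, -0.061, -0.0016 and -0.045 at day 7. Both probes put animal 1 of day 7 highest, and without it their day 7 means were 0.056 and 0.0097. In that animal's sprouting pool the levels were 8.24 and 7.04, against 6.19 and 6.18 in its non-sprouting pool.

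Igfbp3, the main carrier of IGF in blood, had 2 probes that followed each other. The brighter one, A_42_P627998, read 0.66, -0.46, 0.43, 0.077 and -0.0032 at day 21 and 0.34, 0.0094, 0.44, -0.52 and 0.17 at day 7, and the other, A_44_P180127, read 0.41, -0.25, 0.28, 0.18 and 0.092 at day 21 and 0.23, -0.064, 0.39, -0.33 and 0.23 at day 7. The animals lay on both sides of 0 on both days, and the means were 0.14 ± 0.43 at day 21 and 0.089 ± 0.38 at day 7 for the brighter probe (SD, n = 5 each). Igfbp6, which prefers IGF2, read between -0.20 and 0.12 at day 21 and between -0.30 and 0.25 at day 7; its value in animal 4 of day 21 came from the forward array alone.

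Igfbp2, a binding protein of the developing and injured brain, read 0.0056, 0.10, 0.070, -0.12 and -0.083 at day 21 and -0.12, -0.25, -0.15, -0.11 and 0.11 at day 7, the value of animal 4 of day 21 again from the forward array alone. Its level in the sprouting pools was 6.56, 6.77, 6.77, 7.06 and 7.54 at day 21 and 6.32, 6.63, 6.33, 6.41 and 6.49 at day 7; the difference was 0.50 (SE 0.17; exact permutation p = 0.016; limma adjusted p = 0.252). The highest levels were those of animals 4 and 5 of day 21, which share a scan batch, and the non-sprouting pools of the same animals were also highest (7.18 and 7.62). The exact call was lost without animals 4 and 5 of day 21, an alternative chosen after seeing the data (0.27, exact p = 0.054), and in the red channel alone (0.32, exact p = 0.063). Within the batch that held both days the difference was 0.11 in the sprouting and 0.11 in the non-sprouting level.

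Irs1, the adaptor below the IGF1 and insulin receptors, was lower in the sprouting pool of all 5 animals of day 21 by the mean of their 2 arrays. It read -0.25, -0.023, -0.24, -0.13 and -0.10 at day 21 and -0.037, 0.024, 0.16, 0.0023 and 0.074 at day 7. The mean was -0.15 ± 0.095 at day 21 and 0.045 ± 0.076 at day 7 (SD, n = 5 each), and the difference of -0.19 (SE 0.061) had an exact permutation p of 0.016 and a limma adjusted p of 0.921. The exact call was lost on the authors' deposited table (-0.15, exact p = 0.12), where the day 21 mean was -0.079, and also with no background correction (-0.081, exact p = 0.14), median centring (-0.15, exact p = 0.12), Feature Extraction ratios (-0.37, exact p = 0.28) and forward arrays alone (-0.11, exact p = 0.29). The probe was dim: at day 21 it was well above background in the sprouting pool on 2 of 10 arrays. At day 21 the forward arrays averaged -0.031 and the dye-swap arrays -0.27. In animals 2 and 4 of day 21 the 2 arrays had opposite signs: 0.10 and 0.21 on the forward, -0.15 and -0.48 on the dye-swap arrays.

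Across the levels, 0 of 15 member probes passed limma's adjusted threshold between the days in either pool, as did 0% of all tested probes. At an unadjusted p of 0.05, 4 of 15 passed in the sprouting pools, against 14.7% of all probes: both Igf1 probes above and the bright Igfbp4 probe (-0.50) were lower at day 21, and Igfbp2 was higher. For Igfbp4 the exact call (p = 0.032) was lost on leaving out any of 4 animals in turn, and within the batch that held both days the value was 0.016. In the non-sprouting pools 1 of 15 passed, the brightest Igf1 probe, against 15.4% of all probes. In these pools 0 of 15 had every day 21 level below every day 7 level, against 4.1% of all probes, and 0 of 15 had every day 21 level above, against 1.52%. The dim Igfbp4 probe had its highest levels in animals 4 and 5 of day 21, with 7.46 and 8.89 in their sprouting and 7.43 and 8.90 in their non-sprouting pools.

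Further genes of the pathway were read from 3 lists, each gene by its brightest probe. Of 10 tested further IGF system genes (of 13 listed), 40 signalling genes (of 47) and 7 genes of the growth hormone axis (of 7), 0 passed limma's adjusted threshold in any of the ratio comparisons. At day 21 their median log2 ratios were -0.017, -0.0062 and -0.019, and at day 7 they were 0.017, 0.020 and 0.048. By the smallest limma p among genes with 1 sign in all 5 animals, the genes named at day 21 were Phlpp1, a phosphatase that acts on AKT (0.21, p = 0.0046), Insrr, a receptor related to the insulin receptor (0.045, p = 0.19), and Pappa, the protease that cleaves IGFBP4 (-0.033, p = 0.42), all with limma's unadjusted p. At day 7 they were Pik3r2, a regulatory subunit of PI3 kinase (-0.18, p = 0.0066), Pdpk1, the kinase that activates AKT (0.15, p = 0.018), Igfbpl1 (-0.27, p = 0.048) and the docking protein Gab1 (-0.051, p = 0.15). The smallest adjusted p of limma among the genes named here was 0.701.

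The genes whose ratios over the 10 animals were most like those of the brightest Igf1 probe, by Pearson's r among 13538 named genes, were Pstpip1 (r = 0.97; Spearman's rho 0.89), Ube2c (0.96; 0.76), Btg1 (0.96; 0.68), Gpr65 (0.95; 0.79) and Ctsb (0.95; 0.87). Each had its highest ratio in animal 1 of day 7, between 0.75 and 1.44, and these likenesses rest on it: without that animal their r was 0.78, 0.75, 0.73, 0.78 and 0.65 and their ranks 29, 54, 85, 34 and 203. The points share their arrays and amplification, and no p is given. Among the members, r with the brightest Igf1 probe was 0.90 for Igf2r (0.50 without animal 1 of day 7), 0.90 and 0.83 for the Igfbp5 probes (-0.25 and -0.0023 without it), 0.65 for the bright Igfbp4 probe (0.29), 0.32 for Igf2 (-0.53), 0.36 for Irs1 (0.81, rank 13) and -0.46 for Igfbp2 (-0.73); the remaining probes of genes other than Igf1 lay between -0.36 and 0.54.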

How the data were processed

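Per the labels' protocols, RNA of laser-captured neurons went through T7 amplification and indirect dye labelling. The deposited scanner files hold red and green intensity per spot and a log10 ratio made by Agilent Feature Extraction 9.1.3.1, per the file headers; the authors' deposited table holds a log2 ratio of red over green per array, with no stated normalization (column medians 0.00338 to 0.0153; slope 0.863 to 1.68 and correlation 0.892 to 1.00 against the same array's ratio; its scaling and spot handling are unknown), and its other 20 columns were left aside. Here intensities were corrected by normexp (offset 50), loess-normalized within arrays with control spots at weight 0, outlier-flagged spots were left out, and ratios of both orientations were turned to sprouting over non-sprouting and averaged per animal; levels were taken per channel after Aquantile. A probe was tested if both arrays of 3 or more animals of a day detected it over background in a pool, with limma 3.58.1 (R 4.3.3), both days in 1 fit, without a replicate block; same-numbered animals of the 2 days are different animals. Igf1 probes were also tested by exact two-sided permutation of the 5 and 5 animals and sign flips over animals, not adjusted over probes; the same exact values are printed for other members beside limma's. The smallest p is 0.063 for 5 animals and 0.00794 between days. Tested on simulated data for 34226 probes with 200 changed between the days, limma recovered 98.5% of ratio changes of 2 log2 units and 87% of 1 unit, and 93% and 55% of sprouting level changes of these sizes. The 200 probes were picked at random, and noise was drawn independently from a normal distribution with each probe's own spread. No scan batch and no animal apart from the others was simulated, so these shares do not give the power for the Igf1 probes.

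Every member probe was named, the brightest of a gene first; list genes were named by smallest limma p with 1 sign in all animals, and 1 gene that met this rule is not reported here. The members and lists were chosen with earlier results of these data known. Alternatives varied the background correction, centring, filter, flags, orientation, source of ratios, probe choice, scan batch, weights and animals.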

Additional observations from a re-analysis of the deposited data

Results flagged for a closer look

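Among 102 groups of 5 values (log2 ratios and levels of 17 probes, by day), 13 held an animal far from the other 4 by Dixon's criterion. Chance meets it in about 1 group in 20 where groups are independent. These groups are not, since ratios and levels come from the same arrays and all groups share the same animals. The share over all tested probes was not computed, so the count is no result about the members. Animal 1 of day 7 gave 9 of the 13. Its log2 ratio was far above the other animals for Igf1 A_44_P366723 (3.37), Igf1 A_44_P126021 (2.55), Igf2r (1.34), Igfbp5 A_44_P285534 (2.06) and Igfbp5 A_44_P264240 (0.86), and its sprouting level for Igf1 A_44_P126021 (10.16), Igf2r (11.92), Igfbp5 A_44_P285534 (8.24) and Igfbp5 A_44_P264240 (7.04). Animal 5 of day 21 stood apart in the sprouting level of Igfbp5 A_44_P285534 (6.81) and in the non-sprouting level of Igf2r (12.02). Animal 4 of day 21 stood apart in the ratio of Igf1r (-0.53), which came from 1 of its 2 arrays. Animal 2 of day 7 stood apart in the non-sprouting level of Igf2 (14.08).

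The ratio differed between the days by the exact permutation test, day 21 minus day 7, for Igf1 A_44_P366723 (-1.22), Igf1 A_44_P126021 (-0.75), the S43941 probe (-1.10) and Irs1 (-0.19). None of these passed limma's adjusted threshold. The exact p values were not adjusted over probes, and the share of all tested probes that would pass the exact test was not computed. The Irs1 difference was -0.15 on the authors' deposited table, where the exact p was 0.12.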

How the results depend on the processing

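Member probes past limma's adjusted threshold numbered 0 under all 19 to 27 alternatives of each of the 6 comparisons. Over all tested probes the count was 0 except as follows. With the 20 arrays entered singly, with the animal as a random block, it was 13 at day 7, 2 at day 21, 1 for the difference and 8 for the mean of the days. With no background correction it was 1 at day 7 and 1 for the mean of the days; with array weights it was 1 and 1; with the authors' deposited table it was 1 for the mean, with scan batch as a random block 1, and with dye-swap arrays alone 134. Leaving out 1 animal gave 0 to 1 at day 7, 0 to 10 for the sprouting level and 0 to 322 for the non-sprouting level, the last without animal 1 of day 21; leaving out animals 4 and 5 of day 21 together, chosen after seeing the data, gave 3 for the non-sprouting level. A stricter filter left 17127 probes and 8 member probes.

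For Igf1 A_44_P366723 the difference of -1.22 lay between -1.45 and -0.67 when 1 animal was left out, always past the exact test. It was -1.31 (exact p = 0.0893) without animals 4 and 5 of day 21, and over all animals limma's adjusted p was 0.921 for both probes. Its mean of days lay between 0.31 and 0.70, reaching 0.63 (exact p = 0.0078) without animal 3 of day 21. With a replicate block the exact p of the difference was 0.063 for A_44_P366723 (-1.22) and 0.125 for A_44_P126021 (-0.75), the smallest it can give being 0.063, and no probe passed limma; same-numbered animals shared only a number (correlation of their ratio deviations -0.182 to 0.0446). For A_44_P126021 the difference was -0.71 (exact p = 0.0952) with median centring and -0.77 (exact p = 0.196) without animals 4 and 5 of day 21. Leaving out 1 animal gave -0.93 to -0.32 (exact p 0.00794 to 0.119), and the call was lost when any 1 animal of day 21 was left out. Its mean was 0.37 (exact p = 0.0996) with median centring and 0.45 with limma's adjusted p of 0.765. For A_44_P421499 forward and dye-swap arrays alone gave -0.19 and 0.25 at day 21, -0.067 and 0.14 at day 7, and -0.13 and 0.19 in the mean (exact p = 0.0059 and 0.00195); the dye-swap difference was 0.12, the Feature Extraction ratio 0.090 at day 7, and leaving out 1 animal gave means of 0.025 to 0.044. For A_44_P421502 Feature Extraction ratios gave -0.094 at day 21, 0.066 at day 7 and -0.16 for the difference. The sprouting level of Igfbp4 A_43_P16767 turned to 0.016 with scan batch as a fixed block. Of 2084 further values, 135 changed sign, 64 lost and 36 gained a call. The cause of these changes was not tested. Dim probes (Igf1r, Irs1, Igfbp2, Igfbp5, the dim Igfbp4 and the flat Igf1 pair) limit what can be detected.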
